A study of Mus musculus with 8 samples.

Results

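The genes described here move calcium ions into and out of the stores of a cell, pass current when calcium rises, or bind it. They are the calcium pump genes Atp2a2 and Atp2a3, the release channel genes Itpr1, Itpr2, Itpr3 and Ryr2, the cation channel genes Trpm2, Trpm4 and Trpm5, and the calcium sensor gene Scgn. They are 10 of the 23284 genes in the deposited tables and were taken by gene symbol. All 10 passed the filter on low counts. They were chosen by function with their KO over Het fold changes and adjusted p-values in these libraries already known, so their values in that comparison describe them and support nothing further. RNA was sequenced from Tomato-positive pancreatic cells sorted by flow cytometry at embryonic day 17. The KO group has 4 libraries (replicates 8, 9, 17 and 24) of the genotype Neurod1floxed/floxed, Neurog3Cre+, RosaTomato+, and the Het group has 4 libraries (replicates 6, 7, 13 and 19) of the genotype Neurod1floxed/wt, Neurog3Cre+, RosaTomato+, on a strain labelled C56BL/J. Both groups thus carry the Neurog3-Cre transgene, which is active in the precursors of islet cells, the Tomato reporter and at least 1 floxed allele of the transcription factor gene Neurod1, and no group has an intact pair. The labels do not say whether a library is 1 embryo or a pool, so p-values measure the spread between these libraries.

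In endocrine cells, calcium entry sets off hormone release. SERCA pumps draw calcium from the cytosol into the endoplasmic reticulum. IP3 receptors and ryanodine receptors let it out again on a signal. Trpm4 and Trpm5 form channels that open when cytosolic calcium rises and carry monovalent cations, which depolarizes the membrane, while the Trpm2 channel opens on ADP-ribose and also passes calcium. Secretagogin, the product of Scgn, is an EF-hand protein of islet and other neuroendocrine cells that binds calcium and partners of the exocytosis machinery.

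Total counts ran from 10.35 M to 16.08 M. Levels below are CPM, counts per 1 M of the TMM-scaled library size. Neurod1 averaged 14.8 ± 9.17 CPM in KO libraries and 156 ± 36.5 CPM in Het libraries (SD, n = 4 each), without overlap. The 5 endocrine markers (Chga, Chgb, Gcg, Ins2 and Isl1) were detected throughout, at a sum of 16540 to 30498 CPM in KO and 45065 to 53498 CPM in Het. The 4 neuron markers summed to 23.8 to 79.0 CPM in KO and 80.7 to 108 CPM in Het. Of the endocrine markers Gcg, Ins2 and Isl1 were lower in every KO library than in any Het library, and Chga and Chgb overlapped. The neuron sum separated through Ret alone, and without it was 15.7 to 52.5 CPM in KO and 30.8 to 50.4 CPM in Het. The part of these markers in the results below was not tested. Markers of acinar cells, which the sort should remove, summed to 12822 to 44479 CPM in KO and 9869 to 31063 CPM in Het. KO replicate 8 stood apart. It was the highest library for all 8 mesenchyme markers, whose sum was 8857 CPM there, 342 to 497 CPM in the other KO libraries and 250.2 to 1107 CPM in Het. It was the lowest library for 4 of the 10 genes described here. The 4 Y-linked genes examined together were above 400 CPM in KO replicates 8, 9 and 24 and Het replicate 7 and under 1 CPM in the rest, so this level is unevenly spread over the genotypes.

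Of the 10 genes, Atp2a3 and Scgn fell and Itpr2 rose in KO by edgeR's quasi-likelihood test at an adjusted p under 0.05 over 14116 genes, and 7 did not pass. Over all genes tested 0.68% were called lower and 0.34% higher. Without adjustment, 5 of the 10 had a p under 0.05, against 12.2% of all genes tested. All 4 KO libraries lay below all 4 Het libraries for Atp2a2, Atp2a3, Trpm2, Trpm5 and Scgn, as they did for 4.48% of all genes tested, and above them for Itpr2, as they did for 3.55%, so that 8.03% of all genes separated in either direction. DESeq2 and limma-voom with quality weights each called 4 of the 10 lower and 1 higher, against 3.75% and 3.54% of all genes called in either direction. Without KO replicate 8, 3 of the 10 were called lower, with Trpm5 added, and 1 higher, against 1.99% of all genes called in either direction. These calls are near the threshold. Leaving out any 1 of KO replicates 9 and 24 and the 4 Het libraries left none of the 10 called. Without KO replicate 17 only Atp2a3 was called. Over all genes these fits called 26 to 51 lower and 3 to 17 higher, of 14398 to 14499 tested. Neurod1 lost its call too without KO replicate 9 (edgeR adjusted p = 0.0732) or any 1 Het library (edgeR adjusted p = 0.0523 to 0.0651). In bulk RNA, fewer cells that use a gene and less of its RNA per cell cannot be told apart.

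**Figure D1:**
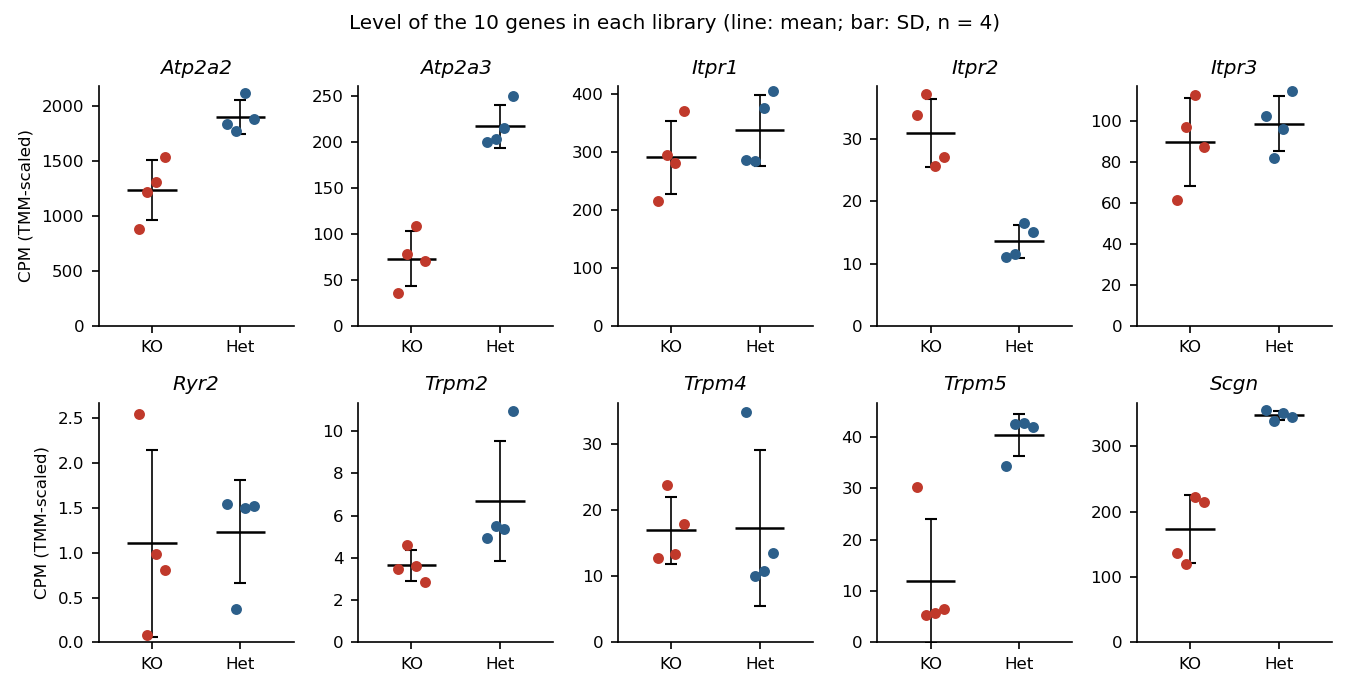
Level of each of the 10 genes, in TMM-scaled CPM from 0, in the 4 KO libraries (left) and the 4 Het libraries (right). Points are libraries, lines are means and bars are SD, with the lower bar cut at 0 for Trpm5. Atp2a2, Atp2a3, Trpm2, Trpm5 and Scgn lie lower and Itpr2 higher in every KO library than in any Het library. For Trpm5, 1 KO library, at 30.2 CPM, lies near the Het range.

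Sequences just before the gene start are shown for Trpm5, Atp2a3, Scgn and Itpr2, which had the largest log2 fold changes in either direction. They are also shown for Trpm2 and Itpr3 as genes that hold the searched motif. Neurod1 is a basic helix-loop-helix factor, a class that binds the E-box, CANNTG. The 250 bases before the start were taken from RefSeq on GRCm38.p6, which is not the build of the counts, and 7 of the 10 genes had an entry. Each line runs 5′ to 3′ and ends just before the start, and capitals mark every CANNTG, a motif that reads as itself on the other strand. The windows are chr7:143094643-143094892, minus strand (Trpm5), chr11:72960919-72961168, plus strand (Atp2a3), chr13:23991215-23991464, minus strand (Scgn), chr6:146502224-146502473, minus strand (Itpr2), chr10:77969873-77970122, minus strand (Trpm2) and chr17:27057054-27057303, plus strand (Itpr3).
Trpm5: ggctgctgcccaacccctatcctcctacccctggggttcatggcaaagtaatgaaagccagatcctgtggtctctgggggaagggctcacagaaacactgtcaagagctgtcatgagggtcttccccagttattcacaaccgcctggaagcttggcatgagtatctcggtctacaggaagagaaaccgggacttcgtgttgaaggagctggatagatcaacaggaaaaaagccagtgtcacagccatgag
Atp2a3: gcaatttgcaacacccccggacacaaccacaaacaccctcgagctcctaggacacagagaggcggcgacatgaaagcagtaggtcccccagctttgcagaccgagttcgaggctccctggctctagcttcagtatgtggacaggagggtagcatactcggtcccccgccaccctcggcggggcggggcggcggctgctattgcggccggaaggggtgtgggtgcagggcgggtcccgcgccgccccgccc
Scgn: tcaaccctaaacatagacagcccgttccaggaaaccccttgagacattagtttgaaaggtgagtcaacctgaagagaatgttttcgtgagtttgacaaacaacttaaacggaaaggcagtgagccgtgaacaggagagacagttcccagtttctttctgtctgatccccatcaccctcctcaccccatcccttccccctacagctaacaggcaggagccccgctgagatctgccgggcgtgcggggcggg
Itpr2: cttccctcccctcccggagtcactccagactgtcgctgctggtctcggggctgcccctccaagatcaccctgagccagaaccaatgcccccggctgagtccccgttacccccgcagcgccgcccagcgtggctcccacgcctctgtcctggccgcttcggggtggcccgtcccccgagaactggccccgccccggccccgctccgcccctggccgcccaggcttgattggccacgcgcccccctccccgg
Trpm2: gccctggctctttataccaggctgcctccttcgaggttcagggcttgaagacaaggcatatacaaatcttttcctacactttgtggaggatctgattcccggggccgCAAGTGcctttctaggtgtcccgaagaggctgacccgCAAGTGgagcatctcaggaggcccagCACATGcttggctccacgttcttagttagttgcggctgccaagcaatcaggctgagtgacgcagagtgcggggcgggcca
Itpr3: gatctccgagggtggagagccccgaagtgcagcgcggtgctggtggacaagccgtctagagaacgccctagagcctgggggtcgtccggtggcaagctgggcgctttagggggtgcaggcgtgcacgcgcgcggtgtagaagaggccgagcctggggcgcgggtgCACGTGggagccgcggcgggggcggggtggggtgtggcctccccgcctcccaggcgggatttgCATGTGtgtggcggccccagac
No CANNTG stood in these windows of Trpm5, Atp2a3, Scgn or Itpr2, while Trpm2 held 3, Itpr3 held 2 and Ryr2 held 2. Of 32851 promoter windows of this length, 66.2% held at least 1. The narrower forms CAGATG, found in 14.4% of all windows on either strand, and CAGCTG, found in 4271 windows, were in none of the 7. The windows of Trpm5 and Scgn held 52.8% and 53.2% G and C, and those of Atp2a3 and Itpr2 held 66.8% and 74.4%. A match or its absence concerns only these letters in this window.

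Of the pump genes, Atp2a3 fell in KO and Atp2a2 did not pass the test. Atp2a3 encodes SERCA3, a pump of lower calcium affinity found in beta cells and blood cells among others. It stood at 35.4, 78.5, 109 and 70.7 CPM in KO replicates 8, 9, 17 and 24, against 200.05, 204, 215 and 251 CPM in Het replicates 6, 7, 13 and 19. Every KO library had less than any Het library, with KO replicate 8 lowest. The log2 fold change was −1.57 (SE 0.28, edgeR adjusted p = 0.0337). Without KO replicate 8 it was −1.35 (edgeR adjusted p = 0.00219), and the adjusted p ran up to 0.110 without another library. Atp2a2 encodes SERCA2, the pump that most cells use. It stood at 883, 1214, 1306 and 1534 CPM in KO and at 1830, 1767, 2117 and 1876 CPM in Het. The groups did not overlap, but Atp2a2 did not pass the test, at a log2 fold change of −0.62 (SE 0.18, edgeR adjusted p = 0.163). DESeq2 (adjusted p = 0.0208) and limma-voom with quality weights (adjusted p = 0.0234) did call it.

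Within the SERCA family, counts per kilobase of exon showed the same order in every library, with Atp2a2 far above Atp2a3. Atp2a3 took 4.39%, 6.91%, 8.74% and 5.04% of the family in KO and 11.2%, 11.7%, 10.5% and 13.3% in Het. The KO shares were all lower, so that Atp2a3 was lower also relative to Atp2a2 in its own library. The log2 ratio of Atp2a3 to Atp2a2 counts averaged −4.15 ± 0.48 in the KO libraries and −3.13 ± 0.17 in the Het libraries, values that do not depend on scaling between libraries. Atp2a1, the SERCA of fast skeletal muscle, took at most 0.535% in any library. It shares 763 bases (21.94%) of its exons with Rabep2 on the other strand in GENCODE M21, and strand was not kept. The part of Rabep2 reads in that share was not tested.

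**Figure D2:**
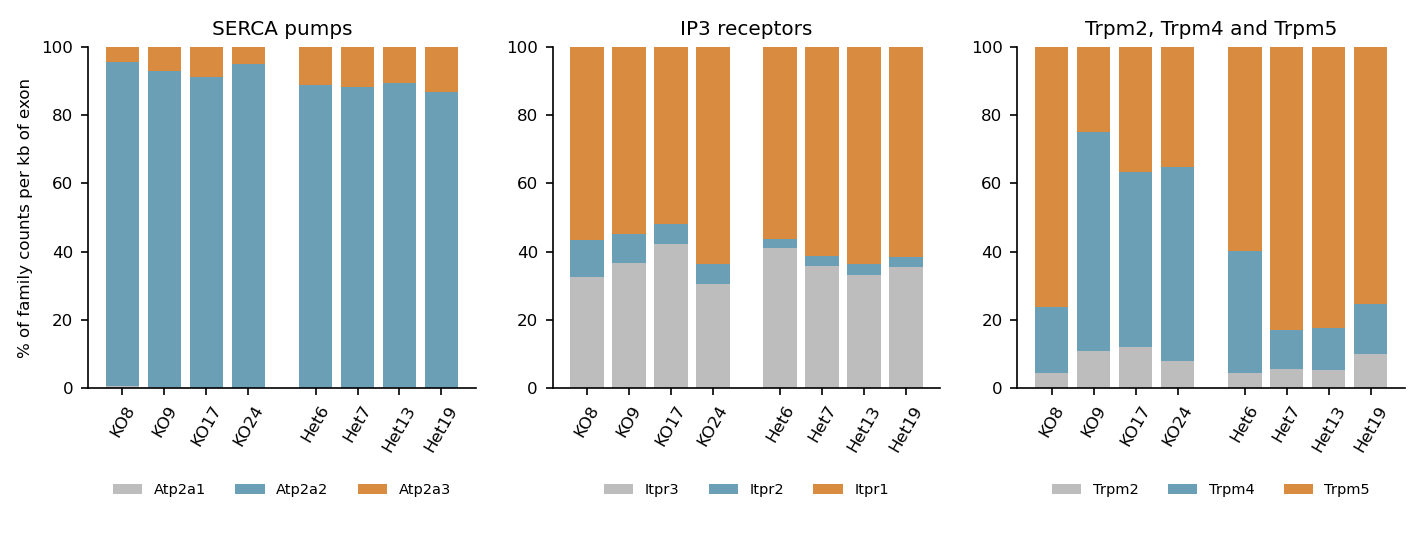
Share of each gene in its family's counts per kilobase of exon, in percent, by library, with KO libraries left of Het libraries. The Atp2a3 share is lower and the Itpr2 share higher in every KO library, and among the 3 Trpm genes KO replicate 8 has a Trpm5 share of 76.3%, against 24.8% to 36.6% in the other KO libraries.

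Among the release channels Itpr2 was higher in KO, and the other IP3 receptor genes did not pass the test. Itpr2 stood at 33.8, 37.2, 25.7 and 27.1 CPM in KO replicates 8, 9, 17 and 24, against 11.1, 11.6, 16.5 and 15.1 CPM in Het replicates 6, 7, 13 and 19. The lowest KO library was above the highest Het library. The log2 fold change was 1.19 (SE 0.23, edgeR adjusted p = 0.0403). Without KO replicate 8 it was 1.13 (edgeR adjusted p = 0.0340), and without any 1 of the other libraries it lay between 1.09 and 1.30 with an adjusted p of up to 0.132. The sum of smooth muscle markers, cells in which IP3 receptors are abundant, was 128 CPM in KO replicate 8 and 7.10 to 24.3 CPM in the other KO libraries, against 7.60 to 85.7 CPM in Het. The sum of duct markers was 444 to 551 CPM in KO and 289 to 503 CPM in Het. Of these markers Cftr was higher in every KO library (edgeR adjusted p = 0.0426), and Krt19, Sox9, Spp1 and Muc1 overlapped. Acinar markers summed to 12822 to 44479 CPM in KO and 9869 to 31063 CPM in Het. The part of smooth muscle, duct or acinar cells in the Itpr2 result was not tested.

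Itpr1, the IP3 receptor best known from neurons, stood at 216, 295, 280.3 and 371 CPM in KO and 286, 285, 375 and 404 CPM in Het, which overlap. Its log2 fold change was −0.22 (SE 0.19, edgeR adjusted p = 0.685). Itpr3, an IP3 receptor of secretory epithelia and islets, stood at 61.4, 97.2, 113 and 87.7 CPM in KO and 103, 82.0, 96.3 and 115 CPM in Het. Its log2 fold change was −0.14 (SE 0.19, edgeR adjusted p = 0.822), and −0.0036 without KO replicate 8, the lowest library for both genes. Per kilobase of exon, Itpr2 took 7.78 ± 2.46% of IP3 receptor counts in KO libraries and 3.02 ± 0.33% in Het libraries (SD, n = 4 each), without overlap. Itpr1 took 56.7 ± 5.04% and 60.6 ± 3.06%, and Itpr3 35.5 ± 5.20% and 36.3 ± 3.33%, in KO and in Het, and these 2 took most of the family in every library.

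Ryr2, the ryanodine receptor of heart muscle and also a release channel of beta cells and neurons, had the lowest level of the 10 genes. It had 35, 1, 13 and 9 counts in KO and 20, 6, 17 and 15 counts in Het. The level in KO replicate 8 was the highest of all and that in KO replicate 9 the lowest. Its log2 fold change of −0.14 had an SE of 0.88 (edgeR adjusted p = 0.967) and was −0.97 without KO replicate 8. Per kilobase of exon, Ryr3, a ryanodine receptor of brain and other tissues, stood at 1.28 ± 0.609 CPM in KO and 1.52 ± 0.124 CPM in Het (SD, n = 4 each), and Ryr2 at 0.0384 ± 0.0361 CPM in KO and 0.0429 ± 0.0200 CPM in Het.

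Trpm5 was lower in each KO library than in any Het library, with KO replicate 8 near the Het range, and did not pass the test with all libraries. It stood at 30.2, 5.42, 5.66 and 6.56 CPM in KO replicates 8, 9, 17 and 24, against 34.3, 42.6, 42.8 and 41.9 CPM in Het replicates 6, 7, 13 and 19. The KO libraries 9, 17 and 24 lay close together at a low level, and KO replicate 8 lay just below the lowest Het library. With all 8 libraries the log2 fold change was −1.75 (SE 0.53, edgeR adjusted p = 0.195). Without KO replicate 8 it was −2.79 (SE 0.22) with an edgeR adjusted p = 6.26e-05. DESeq2 with all 8 libraries gave an adjusted p of 0.0154, and limma-voom with quality weights, which gives less weight to a library that departs from its group, gave 2.01e-04 and a log2 fold change of −2.66.

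KO replicate 8 differed from the other KO libraries in more than Trpm5. Its Neurod1 level of 2.55 CPM was the lowest, the other KO libraries having 12.9 to 22.2 CPM. Trpm5 is also a marker of tuft cells, chemosensory cells of epithelia. The 6 tuft-cell markers listed (Pou2f3, Gnat3, Gng13, Avil, Il25 and Ltc4s) summed to 4.66 CPM in KO replicate 8, 0.988 to 2.71 CPM in the other KO libraries and 0.232 to 1.85 CPM in Het. Without Il25 the sum in KO replicate 8 was 2.33 CPM, below the 2.71 CPM of KO replicate 9. Of the defining markers, Il25 had 32 counts in KO replicate 8, none in the other KO libraries and 1 in all of Het, Pou2f3 was at 0.219 CPM in KO replicate 8, at 0 in the other KO libraries and at most 0.232 CPM in Het, and Gnat3 was at 0 in all of KO. The mesenchyme markers stood 8 of 8 highest in the same library. The part of these cells in the Trpm5 value was not tested. Trpm5 shares 220 bases (3.44%) of its exons with Tssc4 on the other strand in GENCODE M21, and strand was not kept. Tssc4 stood at 16.6, 23.8, 34.4 and 39.4 CPM in KO, lowest in KO replicate 8, and at 45.7 to 52.5 CPM in Het.

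**Figure D3:**
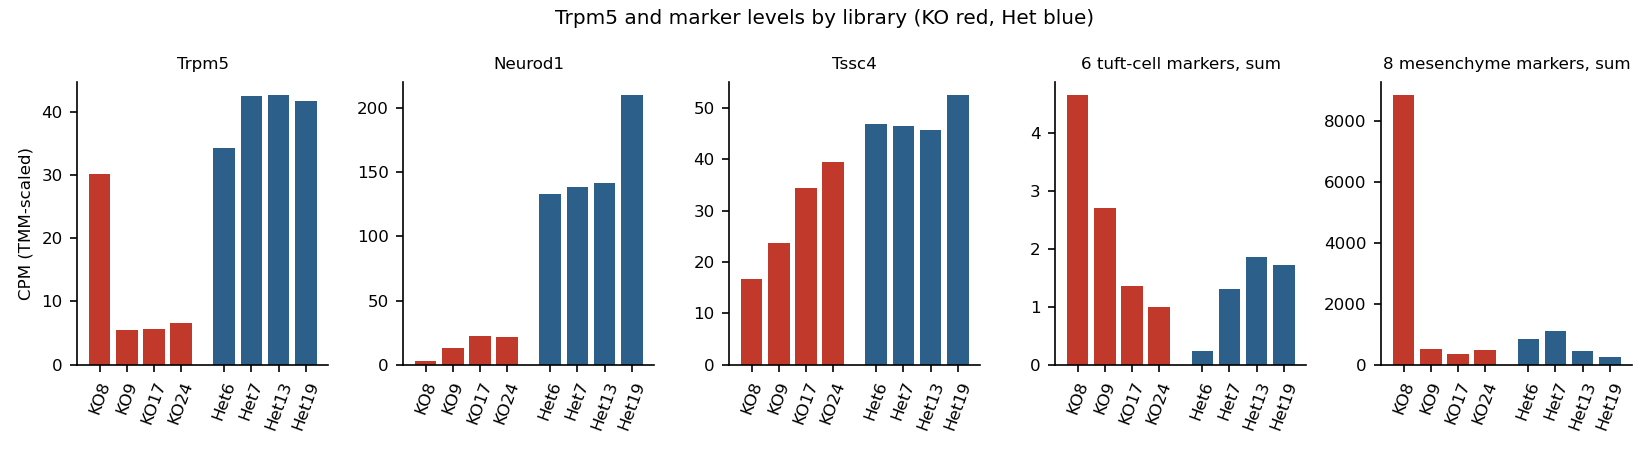
TMM-scaled CPM of Trpm5, of Neurod1, of the overlapping gene Tssc4 and of the summed tuft-cell and mesenchyme markers, by library, with KO (red) left of Het (blue). KO replicate 8 has 30.2 CPM of Trpm5, the least Neurod1 and Tssc4, and the most of both marker sums, the tuft-cell one through Il25 alone.

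Neither of the other Trpm genes passed the test. Trpm4 stood at 12.8, 23.8, 13.4 and 17.9 CPM in KO and at 34.8, 10.1, 10.9 and 13.6 CPM in Het, where replicate 6 was far above the rest. The groups overlapped, and the log2 fold change was −0.03 (SE 0.42, edgeR adjusted p = 0.985), or 0.56 without Het replicate 6 (edgeR adjusted p = 0.578). Trpm2 stood at 3.50, 4.63, 3.62 and 2.88 CPM in KO and at 4.94, 5.50, 5.39 and 10.9 CPM in Het. Every KO library was below every Het library, the highest KO and the lowest Het library being 4.63 and 4.94 CPM, but the log2 fold change of −0.87 (SE 0.42) did not pass (edgeR adjusted p = 0.435). It was −0.54 without Het replicate 19, the highest library (edgeR adjusted p = 0.659). The log2 ratio of Trpm5 to Trpm4 counts was 1.23, −2.13, −1.25 and −1.45 in KO and −0.02, 2.08, 1.98 and 1.62 in Het. KO replicates 9, 17 and 24 lay below all Het libraries, and KO replicate 8 lay inside the Het range.

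Scgn fell in KO and varied little among the Het libraries. It stood at 137, 121, 222 and 215 CPM in KO replicates 8, 9, 17 and 24, against 355, 338, 350.5 and 345 CPM in Het replicates 6, 7, 13 and 19. No KO library reached the Het range, whose SD was 7.25 CPM, against an SD of 52.2 CPM in KO (n = 4 each). The log2 fold change was −0.9998 (SE 0.20, edgeR adjusted p = 0.0469). Without KO replicate 8 it was −0.91 (edgeR adjusted p = 0.0324), and without any 1 of the other libraries the adjusted p rose to between 0.0557 and 0.164. With library totals in place of TMM scaling it was −0.94 and did not pass (edgeR adjusted p = 0.0624).

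**Figure D4:**
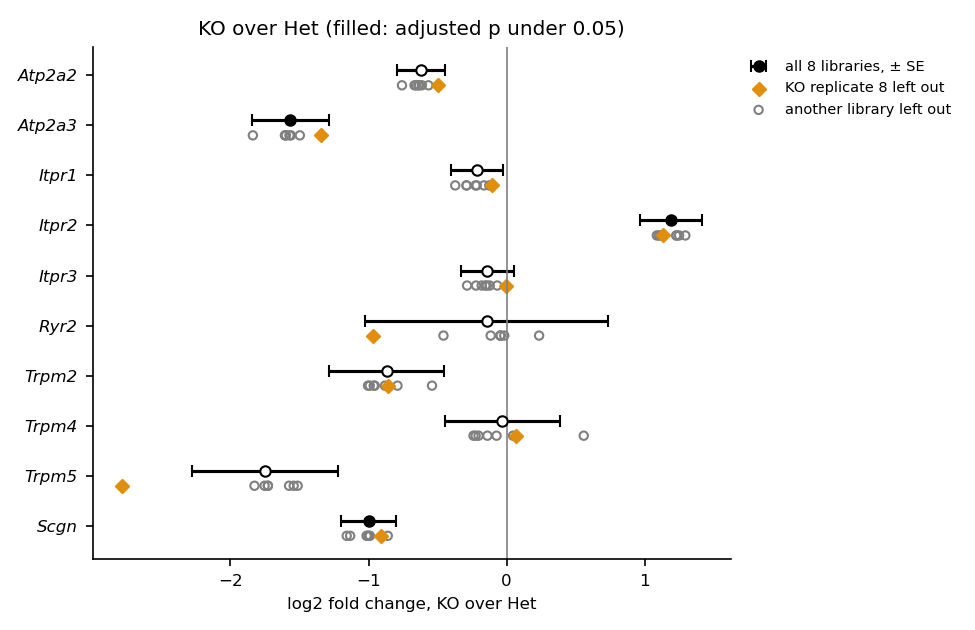
Log2 fold change of KO over Het for the 10 genes. Circles with bars are the values with all 8 libraries ± SE, filled where the adjusted p was under 0.05; diamonds leave out KO replicate 8, small open circles leave out another library, and for Trpm5 the diamond at −2.79 lies far from the value of −1.75 with all libraries.

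With a covariate for Y-linked expression, none of the 10 was called. The log2 fold changes were then −1.37 for Atp2a3, 1.17 for Itpr2 and −0.88 for Scgn (edgeR adjusted p = 0.118, 0.182 and 0.182). In that fit 22 of the 14116 genes tested were called lower and 6 higher, against 96 and 48 without the covariate. Neurod1 lost its call too, at a log2 fold change of −3.18 (edgeR adjusted p = 0.0729). Among the libraries with high Y-linked counts, KO replicates 8, 9 and 24 had 35.4 to 78.5 CPM of Atp2a3 and 121 to 215 CPM of Scgn, against 204 and 338 CPM in Het replicate 7. Among the others, KO replicate 17 had 109 and 222 CPM, against 200.05 to 251 CPM of Atp2a3 and 345 to 355 CPM of Scgn in Het replicates 6, 13 and 19. For Itpr2 the same sets held 27.1 to 37.2 CPM in KO against 11.6 CPM in Het, and 25.7 CPM in KO against 11.1 to 16.5 CPM in Het. Each set has a genotype with 1 library, so it gives no test.

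The levels of the 10 genes were ordered by CPM per kilobase of exon. In KO, Atp2a2 came first at 203 ± 44.4 (SD, n = 4) and Scgn second at 107 ± 32.2. Itpr1 (15.9 ± 3.47), Atp2a3 (13.9 ± 5.72) and Itpr3 (9.96 ± 2.39) followed, each overlapping its neighbour. Itpr2 (2.09 ± 0.37), Trpm5 (1.87 ± 1.90) and Trpm4 (1.57 ± 0.47) formed a lower set with overlapping libraries, and Trpm2 (0.293 ± 0.058) and Ryr2 came last. In Het, Atp2a2 (312 ± 25.1) and Scgn (215 ± 4.48) again led. Atp2a3 (41.2 ± 4.37) came next there and lay above Itpr1 (18.4 ± 3.35) in every library, and Trpm5 (6.31 ± 0.64) lay above Trpm4 (1.602 ± 1.086), Itpr2 (0.917 ± 0.179) and Trpm2 (0.537 ± 0.228), the last 3 overlapping in that order. By group mean, Atp2a3, Trpm5 and Trpm4 thus stood lower in the KO order, and Itpr1 and Itpr2 higher. In KO the libraries of each overlapped those of a neighbour, so these places are not resolved. Trpm5 stood at 4.71 in KO replicate 8 and at 0.848 to 1.03 in the other KO libraries. These exon lengths join all GENCODE M21 transcripts of a gene, so they are a common yardstick and not the length of the form in use.

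Among other calcium-handling genes, Mrln and Nucb2 fell in KO. The 11 lists of other calcium-handling genes held 124 genes, of which 103 were tested. Of these 2 were lower in KO, and none was higher, so 1.94% were called, against 1.02% of all genes tested. Without adjustment 27 (26.2%) had a p under 0.05, 15 of them with a negative fold change, against 12.2% of all genes. The calls numbered 8 (7.77%) by DESeq2 and 7 (6.80%) by limma-voom, against 3.75% and 3.54% of all genes. The median log2 fold change over the lists was 0.03, as it was over all genes tested. The lists were chosen with earlier results of these data known, so these shares describe them and support nothing further.

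One of the called genes is known as a regulator of the pumps. Mrln, listed in the files under its older symbol 2310015B20Rik, encodes myoregulin, a small membrane peptide known to inhibit SERCA in skeletal muscle. It fell to 3.21, 6.86, 5.50 and 5.57 CPM in KO, against 26.5, 21.9, 23.0 and 13.2 CPM in Het. The groups did not overlap, and the log2 fold change was −2.00 (SE 0.33, edgeR adjusted p = 0.0247), and the call was lost (adjusted p 0.0550 to 0.101) on leaving out any library but KO replicate 8 and Het replicate 19. Of the other 3 tested genes of that list none passed, and the SERCA inhibitor gene Sln had no count in any library. The second called gene was Nucb2, which encodes the lumenal and secreted calcium-binding protein nucleobindin 2. It fell to 99.7, 174, 128 and 120.2 CPM in KO, against 295, 284, 274 and 243 CPM in Het, also without overlap. Its log2 fold change was −1.07 (SE 0.17, edgeR adjusted p = 0.0216), and the call was lost (adjusted p 0.0662 to 0.0852) on leaving out any library but KO replicates 8 and 9 and Het replicate 19. It was the 1 called of 9 tested lumenal calcium-binding genes, whose median was −0.26. Both genes also lost their calls with the Y-linked covariate (edgeR adjusted p = 0.112 and 0.101).

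In the other 9 lists no gene passed edgeR's test. Slc8a1, the sodium-calcium exchanger that exports calcium at the plasma membrane, came closest at 149 ± 21.0 CPM in KO and 238 ± 20.03 CPM in Het (SD, n = 4 each; log2 fold change −0.67, edgeR adjusted p = 0.0524), and passed without KO replicate 8 (edgeR adjusted p = 0.0169). Calb1, the calbindin gene and like Scgn a protein with several EF hands, stood at 2.02 ± 1.23 CPM in KO and 10.3 ± 2.39 CPM in Het (log2 fold change −2.35, edgeR adjusted p = 0.0606), without overlap. It passed without KO replicate 8 (edgeR adjusted p = 0.0491). Trpc7, a cation channel opened by diacylglycerol, stood at 19.9 ± 7.89 CPM in KO and 4.49 ± 3.95 CPM in Het, with overlap. Its log2 fold change was 2.16 (edgeR adjusted p = 0.132). Trpc7 passed without KO replicate 8 (edgeR adjusted p = 0.0341) or without Het replicate 19 (edgeR adjusted p = 0.0390). With all 8 libraries, DESeq2 called Slc8a1, Calb1 and Trpc7 (DESeq2 adjusted p = 0.00155, 0.000356 and 0.00392). So did limma-voom with quality weights (limma-voom adjusted p = 0.00423, 0.0168 and 0.00941).

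The gene with the smallest p in each remaining list did not pass edgeR's test, though other tools called Erp44 and Nfatc1. Erp44, a reticulum protein that binds the IP3 receptor, had a log2 fold change of −0.61 (edgeR adjusted p = 0.131) and was called by DESeq2 (adjusted p = 0.0294). Tmem66, whose product ends store-operated entry, had −0.50 (adjusted p = 0.216). Micu3, a regulator of the mitochondrial calcium uniporter listed as Efha2, had −0.54 (edgeR adjusted p = 0.289). Nfatc1, a transcription factor switched by calcineurin, had 0.73 (edgeR adjusted p = 0.123) and was called by DESeq2 (adjusted p = 0.0230) and limma-voom (adjusted p = 0.0143). Plcd3, a phospholipase C gene, had 1.76 (SE 0.73, edgeR adjusted p = 0.366). Cd38, whose product makes messengers of calcium release, had 1.54 (SE 0.86, edgeR adjusted p = 0.499), with 19.6 and 13.4 CPM in KO replicates 8 and 9 and at most 5.72 CPM in any other library. The 4 leukocyte markers (Ptprc, Cd68, Lyz2 and Csf1r) were highest in the same libraries, with sums of 346 and 180 CPM there, 11.3 and 31.1 CPM in KO replicates 17 and 24 and 12.7 to 49.8 CPM in Het, and their part in the Cd38 value was not tested. Without KO replicate 8 the Cd38 value was 0.82.

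**Figure D5:**
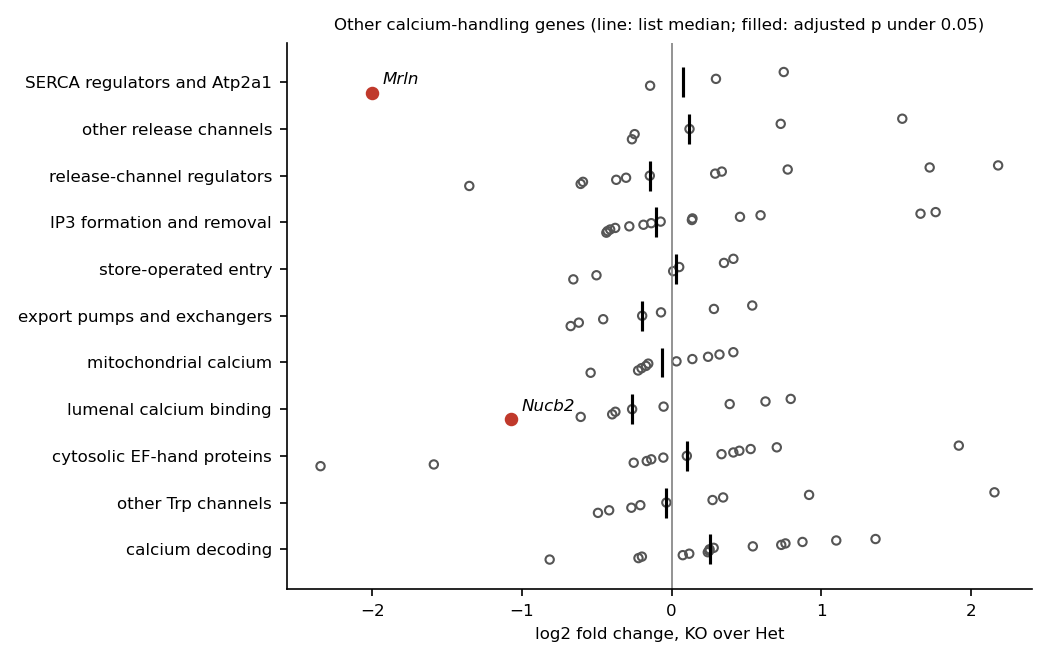
Log2 fold change of KO over Het for the 103 tested genes of 11 lists of other calcium-handling genes. Each point is a gene, black lines are list medians, and filled points passed the test; Mrln at −2.00 and Nucb2 at −1.07 are the 2 that did, and list medians lie between −0.26 and 0.25.

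Patterns across the 8 libraries were compared by log2(CPM+1), taken relative to each gene's own mean. The measure was the mean absolute difference, among 10410 other genes with a mean of 8 CPM or more. The KO and Het libraries do not overlap for Atp2a3, Scgn or Itpr2, so the likeness in part repeats that contrast. Cryba2, a crystallin-family gene, was nearest to Atp2a3 at a mean difference of 0.09, followed by Mtfp1 (0.15) and Tnr (0.17). Cryba2 stood at 45.4 ± 19.7 CPM in KO and 119 ± 16.3 CPM in Het (SD, n = 4 each). Nearest to Scgn were Pkib, an inhibitor of protein kinase A (0.11), Adam23 (0.12) and Slitrk6 (0.12). Of these Pkib and Slitrk6 passed the test (edgeR adjusted p = 0.0272 and 0.00974). Slitrk6 stood at 113 ± 18.7 CPM in KO and 229 ± 2.77 CPM in Het. Nearest to Itpr2 were Lmo3 (0.14), Frem2 (0.14) and Klf3 (0.16), of which Frem2 passed the test (edgeR adjusted p = 0.0440), with 60.3 ± 7.80 CPM of Frem2 in KO and 32.5 ± 4.86 CPM in Het.

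The authors' deposited table of their own comparison called 4 of the 10 genes at an adjusted p under 0.05, where it called 0.981% of all genes with an adjusted p. The authors' deposited table gave a KO over Het fold change of 0.337 for Atp2a3 (adjusted p = 1.59e-09), 0.500 for Scgn (adjusted p = 0.000239), 0.296 for Trpm5 (adjusted p = 0.00110) and 2.28 for Itpr2 (adjusted p = 0.0414). The authors' deposited table gave Atp2a2 a fold change of 0.650 and an adjusted p of 0.0653, and each of the other 5 genes an adjusted p of 1.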

How the data were processed

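The authors deposited 1 table of raw read counts per library, by gene symbol, and a table of their own comparison. Per the labels' protocols, RNA was amplified with the NuGEN Ovation V2 kit and sequenced as single-end reads. The kit is known not to mark strand, and amplified copies count as reads. The tools named in the submitters' processing notes are DESeq, Cufflinks 2.0.2, TopHat2 2.1.0 and bcl2fastq 1.8.4, and the build is mm9. Counting tool and annotation: not given in the sources used here. Per the file headers, the authors' table holds a mean signal per group (normalized counts), their fold change (a ratio), its log2, and p-values with adjusted p-values.

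With edgeR 4.0.16, genes were filtered by filterByExpr (minimum count 10, minimum total 15), which kept 14116 of 23284, and libraries were scaled by TMM. KO was compared with Het by the quasi-likelihood F test, two-sided, without covariates, and p-values were adjusted by Benjamini-Hochberg over all tested genes. The SE is the log2 fold change over the root of F. One CPM stands for 9.86 to 16.2 counts in a library. No pair of libraries held identical values, the labels give no batch, and 0 columns of per-sample values were left unmatched. The fit was also run on simulated data, whose outcome is not given here and is not used as support.

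The members and lists were chosen with earlier results of these data known. Named genes are the 10 members, Neurod1, from each list of related genes up to 3 called genes with the smallest p or otherwise the 1 with the smallest p, and the 3 genes most like each called member. Further genes are named as examples. Older symbols were matched through RefSeq synonyms, and Strit1 had no row. Exon lengths and overlaps come from GENCODE M21. Promoters come from RefSeq, 250 bases before the start. Alternatives used DESeq2 1.42.0 and limma 3.58.1, other scalings and filters, a covariate of Y-linked expression or of 8 mesenchyme markers, and each library left out in turn. The mesenchyme covariate with KO replicate 8 also left out was chosen after seeing the data. Markers of endothelial cells (2.39 to 21.6 CPM summed) and leukocytes (11.3 to 346 CPM) were also summed in each library. So were markers of erythroid cells (6.41 to 15.3 CPM) and of Schwann cells or neural crest (10.3 to 36.5 CPM). Duct cell markers summed to 444 to 551 CPM in KO and 289 to 503 CPM in Het.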

Additional observations from a re-analysis of the deposited data

Results flagged for a closer look

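Of 20 sets of 4 libraries (10 genes in KO and in Het), 5 held a library far from the other 3 by Dixon's test, where chance flags about 1 set in 20. Trpm5 in KO replicate 8, at 30.2 CPM, was far above the other KO libraries, the next being 6.56 CPM. Trpm5 in Het replicate 6, at 34.3 CPM, was below the other Het libraries at 41.9 to 42.8 CPM, a small gap in a tight set. Trpm4 in Het replicate 6, at 34.8 CPM, was far above the next Het library at 13.6 CPM. Trpm2 in Het replicate 19, at 10.9 CPM, was far above the next at 5.50 CPM. Ryr2 in Het replicate 7, at 0.371 CPM, was far below the other 3, on 6 counts where they had 15 to 20.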

How the results depend on the processing

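No paired analysis was made because the labels give no pairing of KO and Het libraries. Of the 10 genes, 2 were lower and 1 higher by the reported test. DESeq2, limma-voom with quality weights and the mesenchyme covariate each called 4 lower and 1 higher, library totals 1 lower and 1 higher, and the Y-linked covariate 0 and 0. With 1 library left out, 0 to 3 were lower and 0 to 1 higher. Over all genes, 96 were lower and 48 higher, against 293 and 227 by DESeq2, 304 and 196 by limma-voom, 339 and 216 with the mesenchyme covariate, 247 and 172 with it and KO replicate 8 left out, 22 and 6 with the Y-linked covariate, and 26 to 188 and 3 to 97 with 1 library left out. Of the related genes, 2 were lower and 0 higher, against 6 and 2 by DESeq2, 4 and 3 by limma-voom, 7 and 2 with the mesenchyme covariate, 6 and 2 with it and KO replicate 8 left out, 0 and 0 with the Y-linked covariate, and 0 to 4 and 0 to 1 with 1 library left out. The cause of these shifts was not tested. The 7 genes that did not pass changed sign in 10 of their 118 values. Trpm4 had 0.032 with library totals, 0.39 by limma-voom, 0.15 with the Y-linked covariate, 0.07 without KO replicate 8 (0.19 with the mesenchyme covariate as well), 0.05 without KO replicate 17 and 0.56 without Het replicate 6. Ryr2 had 0.42 with the Y-linked covariate and 0.24 without KO replicate 9, and Itpr3 had 0.059 with the Y-linked covariate. The KO minus Het difference in family share was −5.40 percentage points for Atp2a3 (−6.22 to −4.77 with 1 library left out), 4.76 for Itpr2 (3.71 to 5.43) and −31.8 for Trpm5 (−42.9 to −25.7), and shares not per length kept these signs. With 1 library left out Trpm4 ran from −0.24 to 0.56 and Ryr2 from −0.97 to 0.24. Ryr2 rests on 1 to 35 counts a library, the fewest of the 10 genes.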
